A study of Mus musculus with 2 samples.

Results

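Nr4a1, Nr4a2 and Nr4a3, and Egr1, Egr2 and Egr3, are 6 of the 32285 genes measured here, and their transcripts were followed through islet leukocytes of NOD mice. They were taken by symbol from the gene table of the deposited matrices, and each symbol had a single row. Levels of 5 of the 6 genes differed by cell type in a like way in both libraries, and Egr2 was low throughout. Among the 14 types with at least 30 cells per library, Nr4a2 was highest in NK and CD8 T cells, Nr4a3 in migratory dendritic cells, Egr1 in macrophages and Egr3 in B cells, and Nr4a1 was highest in B cells or type 2 conventional dendritic cells (cDC2). Between the libraries, 7 of 48 pairs of gene and cell type were past 1.5-fold, where between 3.55% and 17.2% of all genes were, depending on the type.

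NR4A proteins are orphan nuclear receptors, transcription factors with no established natural ligand, whose genes are switched on within minutes to hours by calcium and cAMP signals. Antigen-receptor engagement of T and B cells is a classical inducer, and Nr4a1 reporters are widely used to read it. EGR proteins are zinc-finger transcription factors encoded by immediate-early genes, which respond to the MAP kinase arm of the same receptors, and Egr2 and Egr3 are also tied to T-cell anergy. Growth factors, adhesion, warming and enzymatic digestion of tissue can induce both families too, so a transcript of these genes in a dissociated cell does not by itself mark contact with antigen.

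The mice were females of the NOD strain, which develops autoimmune diabetes, at 12 weeks of age. One group was WT NOD and the other NOD.Cxcl16-/-, a NOD line without Cxcl16, the membrane-bound chemokine that is the ligand of CXCR6. Per the labels' protocols, each pancreas was perfused with collagenase and digested at body temperature, islets were picked by hand and dispersed without enzymes, and live CD45+CD31- cells were sorted for 10x Genomics 3' sequencing. Each group has 1 library, so no difference below has a replicate check: intervals are 95% exact counting intervals (Poisson for levels, Clopper-Pearson for shares) and cover counting error only. The labels do not say how many animals each library holds, and all cells of a library went through the same digestion and sort.

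Depth was 93553185 UMIs (unique molecular identifiers, each a counted transcript) over 13859 barcodes for WT NOD, and 98681133 UMIs over 10554 barcodes for the library labelled NOD.Cxcl16-/-. After filtering, 10722 and 9323 cells remained, with medians of 3900 and 4923 UMIs per cell. The targeted gene was seen in both: Cxcl16 stood at 103 CPM (UMIs scaled to a common total of 1e6) over all WT NOD barcodes and at 102 CPM in the library labelled NOD.Cxcl16-/-, and at 69.4 and 99.8 CPM in the kept cells. The 3' tag may lie outside the deleted part, which the sources used here do not give, so Cxcl16 may check nothing, and the second group is called by its label throughout. The libraries shared 45 barcodes, and leaving these out moved no ratio of the 6 genes by more than its counting interval in CD8 T, CD4 T, Treg, B or macrophage cells. Cells were assigned to 16 types by gates on marker UMIs, none of which is an NR4A or EGR gene. Cd79a, a B-cell marker that T cells lack, was at 10.2 and 3.06 CPM in CD8 T cells against 2548 and 2388 CPM in B cells. A gate of T cells with no Cd4 or Cd8 UMI and a gate of myeloid cells with Ifitm3 and Cfp are rules, not cell types. The gates left 24.1% and 20.03% of kept cells without a type, with medians of 2152.5 and 6433 UMIs. Levels are given for the 14 types with at least 30 cells per library and ratios for the 10 with at least 50.

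The letters before start sites of these genes are shown first, because the NR4A windows share a feature. Windows were taken from a RefSeq table for 4 of the 6 genes. Egr1 was left out of that search, so whether it has a window there is not shown, and none was found for Egr3. The 250 bases before a start site are printed 5′ to 3′ on the gene's strand (GRCm38.p6). Capitals mark the half-site of the cAMP response element (CRE), TGACG or its reverse complement CGTCA, and, in Egr2, also the CArG box, the element of serum response factor. The Nr4a1 window is chr15:101266596-101266845 on the plus strand, Nr4a2 chr2:57124004-57124253 on the minus strand, Nr4a3 chr4:48045055-48045304 on the plus strand and Egr2 chr10:67537619-67537868 on the plus strand.
Nr4a1: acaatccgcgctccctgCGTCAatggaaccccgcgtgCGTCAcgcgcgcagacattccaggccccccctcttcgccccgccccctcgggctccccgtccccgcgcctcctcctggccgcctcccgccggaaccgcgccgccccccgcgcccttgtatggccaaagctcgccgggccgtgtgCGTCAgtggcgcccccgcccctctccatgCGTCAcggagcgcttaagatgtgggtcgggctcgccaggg
Nr4a2: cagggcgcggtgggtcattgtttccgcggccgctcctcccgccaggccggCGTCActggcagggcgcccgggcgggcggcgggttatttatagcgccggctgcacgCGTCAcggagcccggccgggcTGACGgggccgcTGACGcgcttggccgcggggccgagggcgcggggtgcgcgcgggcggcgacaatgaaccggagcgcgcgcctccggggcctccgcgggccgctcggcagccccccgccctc
Nr4a3: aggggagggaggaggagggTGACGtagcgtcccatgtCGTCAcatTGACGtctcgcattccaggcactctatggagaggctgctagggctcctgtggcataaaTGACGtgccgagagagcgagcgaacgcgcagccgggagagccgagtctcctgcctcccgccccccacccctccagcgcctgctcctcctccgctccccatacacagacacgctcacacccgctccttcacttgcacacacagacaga
Egr2: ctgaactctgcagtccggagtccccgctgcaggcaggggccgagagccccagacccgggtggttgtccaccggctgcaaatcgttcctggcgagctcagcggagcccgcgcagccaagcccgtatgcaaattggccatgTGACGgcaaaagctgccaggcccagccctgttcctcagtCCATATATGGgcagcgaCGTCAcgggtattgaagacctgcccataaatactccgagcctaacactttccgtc

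Each of the 3 NR4A windows held 4 CRE half-sites. Of all 32851 RefSeq windows of that length, 17.8% held at least 1 such half-site and 0.137% held at least 4. The half-site contains CG, and these windows are rich in G and C (74.4%, 80.0% and 63.6% for Nr4a1, Nr4a2 and Nr4a3). Among the 9178 windows with at least 60% GC, 0.370% held at least 4. In Nr4a1 the matches began 233, 213, 69 and 40 bases before the start, in Nr4a2 200, 144, 123 and 111 bases, and in Nr4a3 231, 213, 205 and 147 bases. The Egr2 window held 2 half-sites, 111 and 55 bases before the start, with a CArG box between them at 72 bases. A CArG box stands in 1.47% of all windows. Egr2 has 5 RefSeq windows, of which 2 hold no CRE half-site and 1 holds none of the motifs searched. The printed window was chosen after its matches were seen, and the 3 motifs searched (CRE half-site, CArG box and EGR site, the last found once, in Nr4a1) were chosen after the sequences had been looked at. By the gene spans given with each gene below, the Nr4a1 and Egr2 windows lie inside the annotated gene, before an internal start, the Nr4a3 window overlaps the first bases of the gene, and the Nr4a2 window lies before it. A match describes letters only and shows no binding.

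Nr4a1 (Nur77, ENSMUSG00000023034, chr15:101254269-101274795 in GRCm38) is the NR4A gene most often used to report B- and T-cell receptor signals. In B cells it stood at 217 CPM (interval 207 to 227) in the WT NOD library, and the other library had 205 CPM (196 to 213). CD8 T cells had 40.1 and 36.2 CPM, and CD4 T cells 56.1 and 48.6 CPM. The B-cell level was thus several times that of the main T-cell types in both libraries. In type 1 conventional dendritic cells (cDC1) it was 161 and 169 CPM, and in cDC2 245 and 167 CPM. NK cells held 141 CPM (111 to 177) and 82.0 CPM (58.3 to 112). Plasma cells, the antibody-secreting cells, were lowest, with 1 UMI in 42 cells and 10 UMIs in 79 cells, that is 0.959 and 4.74 CPM. Among the 14 types B cells were second to cDC2 in the WT NOD library, where their intervals overlapped, and first in the other library, where B cells stood apart from cDC1. Type 2 innate lymphoid cells, left out of that order for their number, held 311 CPM (213 to 439; 24 cells) and 359 CPM (286 to 445; 53 cells), above B cells in both libraries, with intervals apart in the second.

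Cells with at least 1 Nr4a1 UMI made up 50.9% and 50.6% of B cells, which have medians of 4455 and 4582 UMIs. After every cell was thinned to 2000 UMIs, leaving out 153 and 75 shallower B cells, the shares were 31.1% (28.8 to 33.5) and 31.7% (29.7 to 33.9). Thinned plasma cells had none: 0 of 42 and 0 of 77. The thinned share of CD8 T cells was 8.26% (7.07 to 9.57) and 7.62% (6.29 to 9.14). Thinning left out 531 of 2481 and 82 of 1486 CD8 T cells, a larger part in the WT NOD library. Among B cells, those with a UMI of Fcer2a or Cr2 (markers of follicular B cells) held 220.5 and 245 CPM of Nr4a1 and the other resting B cells 225 and 198 CPM. Cycling B cells held 79.9 CPM (51.7 to 118; 19 cells) and 55.9 CPM (44.4 to 69.4; 69 cells), below both resting groups in CPM. They were deeper, with medians of 14069 and 18247 UMIs, against 4482.5 and 4451 in cells with Fcer2a or Cr2, so their CPM is of a larger total. In raw counts they held 25 Nr4a1 UMIs in 19 cells and 81 in 69. Cells with Fcer2a or Cr2 held 1126 in 1058 and 1467 in 1223, a similar number per cell.

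Nr4a2 (Nurr1, ENSMUSG00000026826, chr2:57106830-57124003, minus strand) is best known for its part in dopamine neurons and is also induced in activated T cells. NK cells held most, 398 CPM (347 to 455) and 452 CPM (394 to 517). CD8 T cells followed with 223 CPM (216 to 231) and 282 CPM (272 to 292). CD4 T cells had 143 CPM (134 to 152) and 186 CPM (177 to 196), and regulatory T cells (Treg, gated on Foxp3) 82.9 and 107 CPM. NK stood apart from CD8 T cells in both libraries, and CD8 T from CD4 T cells. Ifitm3 Cfp myeloid cells held 139 CPM (124 to 156) and 248 CPM (232 to 265), and cDC1 124 and 197 CPM. In the library labelled NOD.Cxcl16-/- the Ifitm3 Cfp myeloid cells stood above CD4 T cells, with intervals apart. B cells held 58.4 and 71.3 CPM and macrophages 49.2 and 46.6 CPM. Plasma cells had 0 UMIs in the WT NOD library, with an upper interval bound of 3.54 CPM (3 counts would be 2.88 CPM), and 3.31 CPM in the other. Thinned to 2000 UMIs, 32.9% (30.8 to 35.1) and 37.4% (34.9 to 40.0) of CD8 T cells had an Nr4a2 UMI, against 49.4% and 62.8% before thinning. The thinned shares leave out 531 and 82 shallower CD8 T cells. The corresponding thinned shares were 47.7% and 48.9% of NK cells, 9.60% and 11.2% of B cells and 0 in plasma cells of both libraries.

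Within T cells Nr4a2 differed by subset. CD8 T cells with Entpd1 or Havcr2, markers of chronic stimulation, had 322 CPM (296 to 350) and 346 CPM (314 to 379.9), and cycling CD8 T cells 165 CPM (155 to 175) and 183 CPM (171 to 196). The CD4 T cells with at least 2 of 4 anergy markers (Nrn1, Tnfsf8, Izumo1r and Nt5e, with Nrn1 or Tnfsf8 among them), called anergic-like, had 240.2 CPM (218 to 264) and 296 CPM (274 to 319). Cycling CD4 T cells had 104 CPM (88.4 to 121) and 129.9 CPM (114 to 147). In CPM the marker-positive cells were above the cycling cells in both lineages and libraries, with intervals apart. Cycling cells were deeper, with medians of 10533 and 15930 UMIs in CD8 T cells, against 5093.5 and 5511 with Entpd1 or Havcr2. The CD4 T medians were 15902 and 18317.5, against 4962.5 and 5312.5 in anergic-like cells. Per cell the order was the reverse in both lineages. Cycling CD8 T cells held 1101 Nr4a2 UMIs in 495 cells and 843 in 238, against 567 in 320 and 435 in 208. The remaining non-cycling CD8 T cells had 252 CPM (240.4 to 263) and 345 CPM (330.0 to 360.1), so in the library labelled NOD.Cxcl16-/- they were level with the cells with Entpd1 or Havcr2. The CD4 T cells that were neither anergic-like, cycling nor positive for Il21 or Cxcr5 had 107 and 142 CPM.

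Nr4a3 (Nor1, ENSMUSG00000028341, chr4:48045153-48086447) is the family member whose transcript is used to time very recent T-cell receptor signals. It was highest in migratory dendritic cells, gated on at least 3 of Ccr7, Fscn1, Ccl22 and Cacnb3, at 288 CPM (245 to 336) and 244 CPM (213 to 277). Next came cDC2 with 206 and 222 CPM and the Ifitm3 Cfp myeloid cells with 175 and 213 CPM. CD4 T cells had 96.9 and 92.4 CPM, CD8 T cells 43.6 and 50.6 CPM and B cells 30.5 and 31.9 CPM. The order over these types was the same in both libraries.

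**Figure D1:**
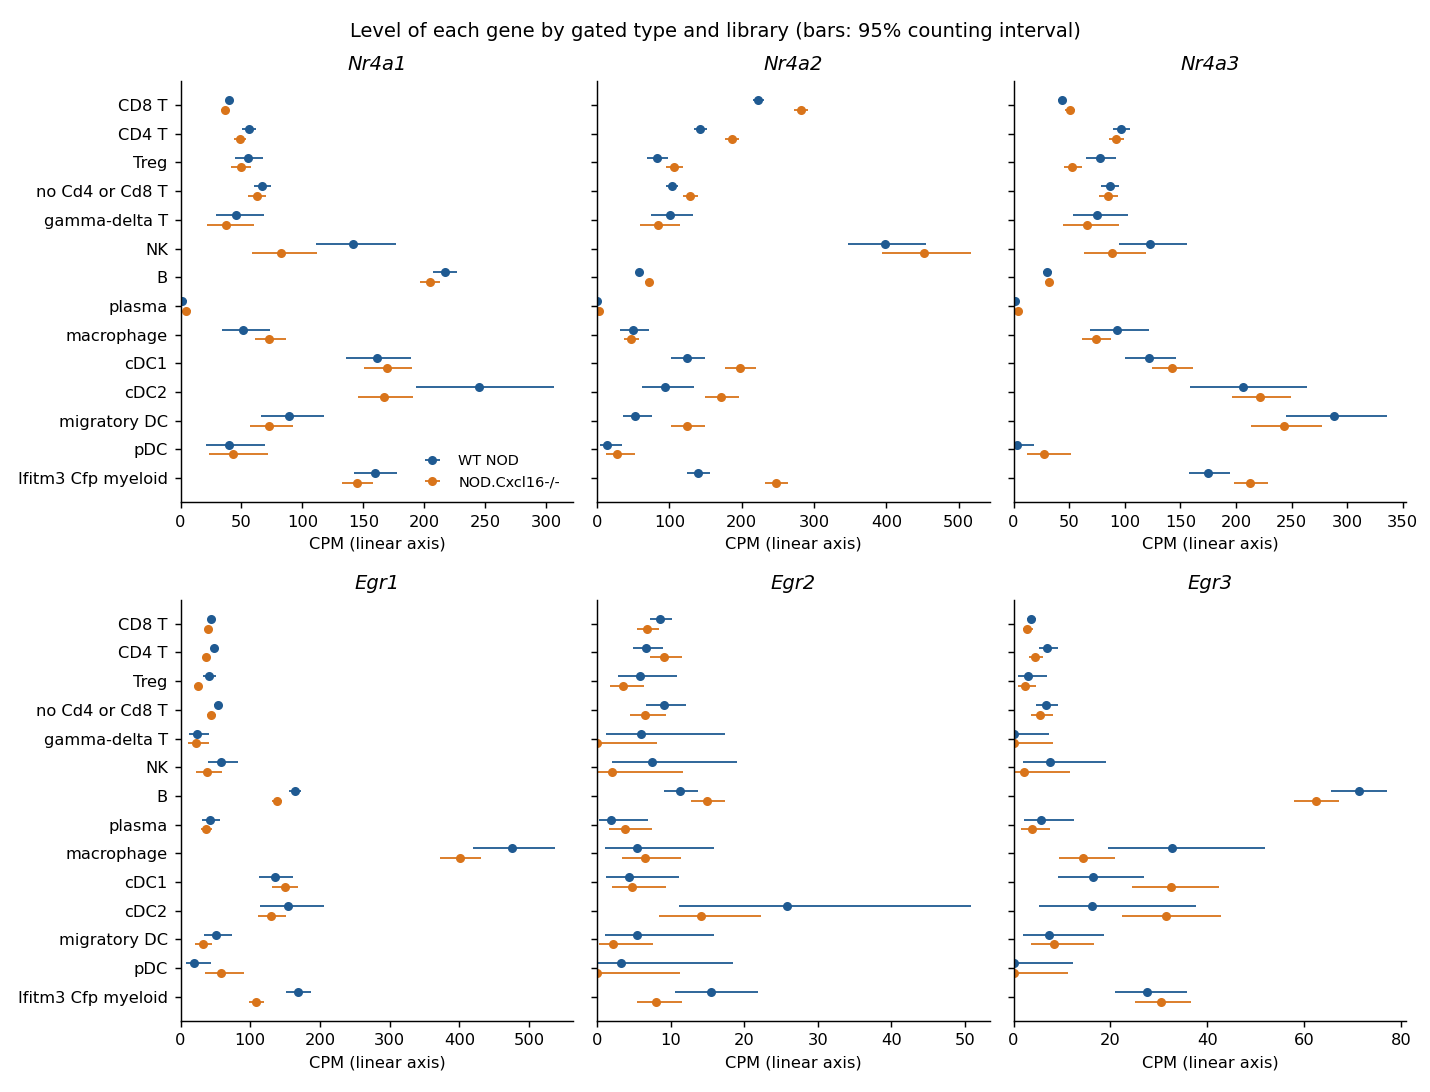
Level of each of the 6 genes in CPM (linear axis, own scale per panel) by gated type, blue for the WT NOD library and orange for the library labelled NOD.Cxcl16-/-, with 95% exact counting intervals as bars. Egr1 stands out in macrophages (475 and 401 CPM), Egr3 in B cells (71.2 and 62.5 CPM), and in plasma cells all but Egr1 are at most 5.76 CPM.

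The makeup of the NR4A transcripts gives the same contrast without any total in the denominator. In CD8 T cells 72.7% (71.5 to 74.0) and 76.4% (75.1 to 77.7) of the NR4A UMIs were Nr4a2. In B cells Nr4a2 made up 19.1% and 23.2%, and Nr4a1 70.9% (69.1 to 72.7) and 66.5% (64.9 to 68.0). Migratory dendritic cells were the type in which Nr4a3 led most, with 66.9% and 55.3% of the UMIs. Each UMI counts a molecule once whatever its length, but capture differs between genes, so these shares compare types and not the amounts of the 3 transcripts. The Nr4a2 share was higher in the library labelled NOD.Cxcl16-/- in 8 of the 10 types with at least 50 cells, among them CD4 T (48.3% and 56.9%), Treg (38.4% and 51.1%), NK (60.1% and 72.6%), cDC1 (30.5% and 38.8%) and Ifitm3 Cfp myeloid cells (29.4% and 40.9%). It was not in macrophages (25.5% and 24.1%) or gamma-delta T cells (45.5% and 44.7%). The Nr4a2 level was higher in the same 8 types, so this count is not a separate result, and it was made after the data were seen. By level, 28.9% of 2373 genes were higher in at least 8 of the 10 types.

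**Figure D2:**
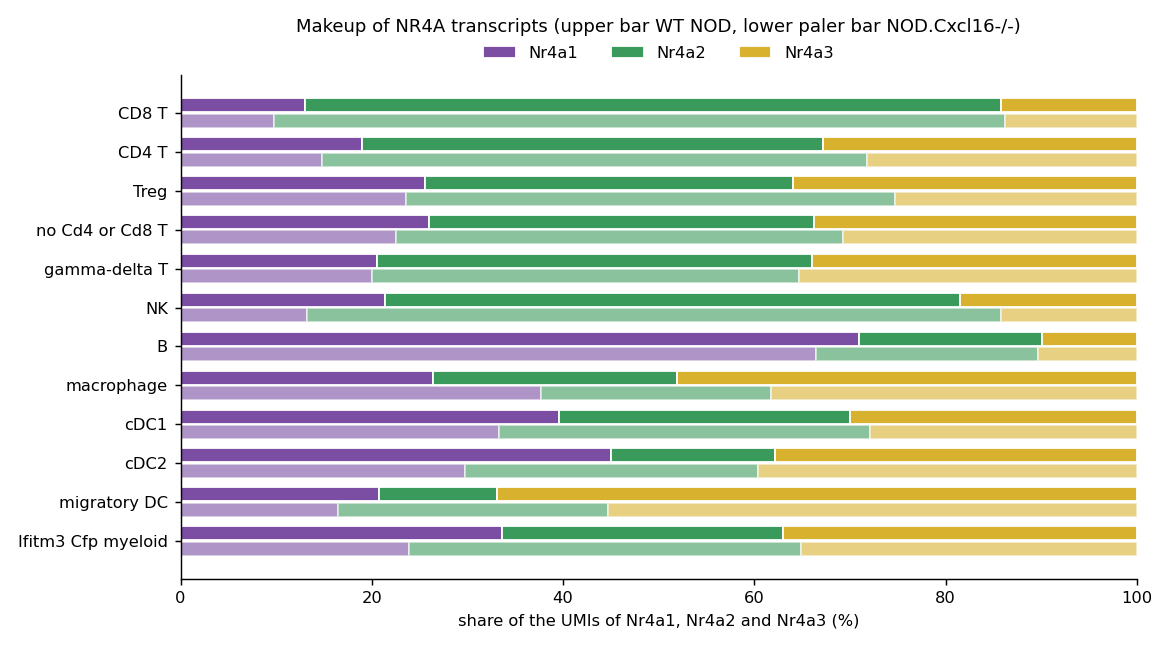
Share of the UMIs of Nr4a1, Nr4a2 and Nr4a3 (percent, x axis) in each gated type, upper bar WT NOD and lower paler bar the library labelled NOD.Cxcl16-/-. Nr4a2 fills 72.7% and 76.4% of the CD8 T bars, and Nr4a1 fills 70.9% and 66.5% of the B bars.

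Egr1 (ENSMUSG00000038418, chr18:34859823-34864984) is the prototype immediate-early factor of the family and responds to most mitogens and to mechanical and thermal stress. Macrophages held 475 CPM (419 to 536; 52 cells) and 401 CPM (372 to 431; 162 cells). B cells held 164 CPM (155 to 173) and 138 CPM (132 to 145), cDC1 136 and 149 CPM and the Ifitm3 Cfp myeloid cells 169 and 108 CPM. Macrophages stood apart from every other type in both libraries. CD8 T cells had 44.0 and 38.7 CPM, CD4 T cells 48.6 and 36.6 CPM and Treg cells 40.6 and 25.0 CPM. Plasma cells, in which the NR4A genes were near 0, had 42.2 CPM (30.7 to 56.7) and 36.5 CPM (28.8 to 45.6) of Egr1. The Egr1 CPM intervals of CD8 T and plasma cells overlapped in both libraries. Plasma cells were much deeper, with medians of 24695 and 27285 UMIs against 4635 and 5530.5, and Jchain alone was at 47217 and 34153 CPM in them. Per cell, plasma cells held more Egr1, 44 UMIs in 42 cells and 77 in 79. CD8 T cells held 701 in 2481 and 456 in 1486, and B cells 1371 in 1716 and 1549 in 2004. Thinned to 2000 UMIs, 42.2% (27.7 to 57.8) and 39.5% (31.5 to 47.8) of macrophages and 18.1% and 16.4% of B cells had an Egr1 UMI. The thinned shares were 8.87% and 7.41% of CD8 T cells and 16.7% (6.97 to 31.4) and 5.19% (1.43 to 12.8) of plasma cells. Without thinning the shares were 61.5% and 63.6% of macrophages, whose median depths were 11765.5 and 10762.5 UMIs. In these macrophages 11 islet and exocrine genes (Ins1, Ins2, Gcg, Sst, Ppy, Iapp, Pyy, Cpa1, Prss2, Cela1 and Krt19) summed to 13801 and 11748 CPM, with 5 and 3 of the 11 at 0. Their part in the macrophage levels was not tested.

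Egr2 (Krox20, ENSMUSG00000037868, chr10:67535475-67542188), a factor of anergy and of germinal-centre and NKT cell development, was the rarest of the 6 genes over all kept cells, at 9.05 and 9.04 CPM. B cells held 11.2 CPM (9.08 to 13.7) and 15.0 CPM (12.8 to 17.5). CD8 T cells had 8.60 and 6.80 CPM and CD4 T cells 6.72 and 9.15 CPM. The highest WT NOD value, 25.8 CPM in cDC2, came from 8 UMIs. Egr2 thus had no type that stood out in both libraries. Within CD4 T cells the anergic-like cells had 13.6 CPM (8.73 to 20.3) and 14.2 CPM (9.70 to 20.01).

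Egr3 (ENSMUSG00000033730, chr14:70077203-70082614), which acts with Egr2 in lymphocytes, was highest in B cells among the 14 types. B cells held 71.2 CPM (65.6 to 77.2) and 62.5 CPM (57.9 to 67.3), and CD8 T cells 3.58 and 2.80 CPM. The next types were macrophages in the WT NOD library (32.8 CPM) and cDC1 in the other (32.6 CPM), with intervals apart from B cells in both. No Egr3 UMI was seen in gamma-delta T or plasmacytoid dendritic cells of either library. Thinned to 2000 UMIs, 12.5% (10.9 to 14.2) and 11.1% (9.73 to 12.6) of B cells and 0.615% and 1.07% of CD8 T cells had an Egr3 UMI. Of the EGR UMIs of B cells, 28.9% were Egr3 in both libraries, against 6.37% and 5.80% in CD8 T cells. Follicular-marker B cells had 78.7 and 79.0 CPM and the other resting B cells 62.4 and 50.6 CPM, with intervals apart in the second library (72.0 to 86.5 against 43.7 to 58.3).

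All 6 genes together came to 363 and 417 CPM in CD8 T cells, 358 and 378 CPM in CD4 T cells, 265 and 239.5 CPM in Treg cells, 552 and 524 CPM in B cells and 706 and 615 CPM in macrophages. As log2 ratios of the library labelled NOD.Cxcl16-/- over WT NOD, computed here and below on CPM plus 1, these were 0.20 (0.14 to 0.26), 0.08, -0.15 (-0.32 to 0.03), -0.08 (-0.13 to -0.02) and -0.20 (-0.37 to -0.03). Thinned to 2000 UMIs a cell, the macrophage ratio was 0.37 and that of B cells 0.03, so neither direction held. Unthinned, B subsets differed in direction. The ratio was 0.10 (0.02 to 0.17) in B cells with Fcer2a or Cr2 and -0.13 (-0.22 to -0.04) in the other resting B cells. Cycling B cells, lower at 243 and 223 CPM, were 19 and 69 cells. The share of thinned cells with a UMI of any of the 6 genes was 47.9% and 50.6% in CD8 T, 45.5% and 45.4% in CD4 T, 53.5% and 51.5% in B and 57.8% and 56.5% in macrophage cells. Single genes differed in opposite directions within these sums.

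Among genes with at least 50 UMIs over both libraries, none of the 6 members was past 1.5-fold in CD8 T cells, where 3.86% of all genes were. None of 6 was in CD4 T cells (3.55% of all genes), none of 6 in T cells without Cd4 or Cd8 (5.73%), none of 6 in B cells (5.59%), none of 4 in macrophages (17.2%) and none of 2 in gamma-delta T cells (16.7%). In Treg cells 1 of 4 was, Egr1, against 6.64% of all genes. In NK cells it was 1 of 3, Nr4a1, against 8.69%. In cDC1 Nr4a2 and Egr3 were higher, 2 of 5 against 11.1%. In Ifitm3 Cfp myeloid cells Nr4a2 was higher and Egr1 and Egr2 lower, 3 of 6 against 8.15%. The members' median log2 ratio was -0.16 in CD8 T cells, beside 0.04 over all genes tested, -0.14 in CD4 T cells beside 0.02, -0.35 in Treg cells beside 0.02, -0.01 in B cells beside 0.04 and -0.16 in macrophages beside -0.03.

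Nr4a2 was higher in the library labelled NOD.Cxcl16-/- in 8 of the 10 types, with a median log2 ratio of 0.33. The ratio was 0.34 (0.27 to 0.41) in CD8 T, 0.38 (0.27 to 0.50) in CD4 T and 0.28 (0.12 to 0.45) in B cells. It was larger in cDC1, 0.67 (0.36 to 0.99), and in the Ifitm3 Cfp myeloid cells, 0.83 (0.64 to 1.03), where 104 of 189 and 230 of 294 cells had an Nr4a2 UMI. The exceptions were gamma-delta T cells at -0.26 and macrophages at -0.08, both with intervals that span 0. Migratory dendritic cells, with fewer cells, had 1.22 (0.64 to 1.88), from 52.8 and 124 CPM. Such a count is not rare here: 28.9% of the 2373 genes with 50 UMIs in all 10 types were higher in at least 8, and this gene and number were picked after the ratios had been seen. In Treg cells the Nr4a2 ratio was 0.36 (0.07 to 0.66) but -0.22 after thinning to 2000 UMIs, with thinned shares of 22.4% and 17.7%. By the mean of each cell's own CPM the CD8 T ratio was 0.51.

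By subset, the Nr4a2 ratio was 0.10 (-0.08 to 0.28) in CD8 T cells with Entpd1 or Havcr2 and 0.15 (0.02 to 0.28) in cycling CD8 T cells, and 0.45 (0.36 to 0.55) in the remaining CD8 T cells, which are 1666 of 2481 and 1040 of 1486 cells. The difference between subsets was not tested. In CD4 T cells the ratio was 0.30 (0.12 to 0.48) in anergic-like cells, 0.40 (0.20 to 0.61) in the remaining cells and 0.65 (0.21 to 1.10) in cells with Il21 or Cxcr5, genes of B-cell help.

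Egr1 went the other way. It was lower in the library labelled NOD.Cxcl16-/- in 7 of the 8 types in which it had 50 UMIs, with a median log2 ratio of -0.26, and 9.17% of 3993 genes were lower in at least 7 of those types. This count too was picked after the ratios had been seen. The ratio was -0.24 (-0.35 to -0.14) in B, -0.40 (-0.64 to -0.18) in CD4 T, -0.68 (-1.19 to -0.21) in Treg and -0.64 (-0.85 to -0.43) in Ifitm3 Cfp myeloid cells. Only cDC1 was higher, 0.13 (-0.18 to 0.46). In macrophages the ratio of -0.24 (-0.45 to -0.04) became 0.29 after thinning. Over all kept cells Egr1 was 84.8 and 98.4 CPM, a log2 ratio of 0.21 (0.16 to 0.27), the opposite direction to most gated types. The cells without a type had 93.7 and 127 CPM, and the libraries differ in their mix of types.

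**Figure D3:**
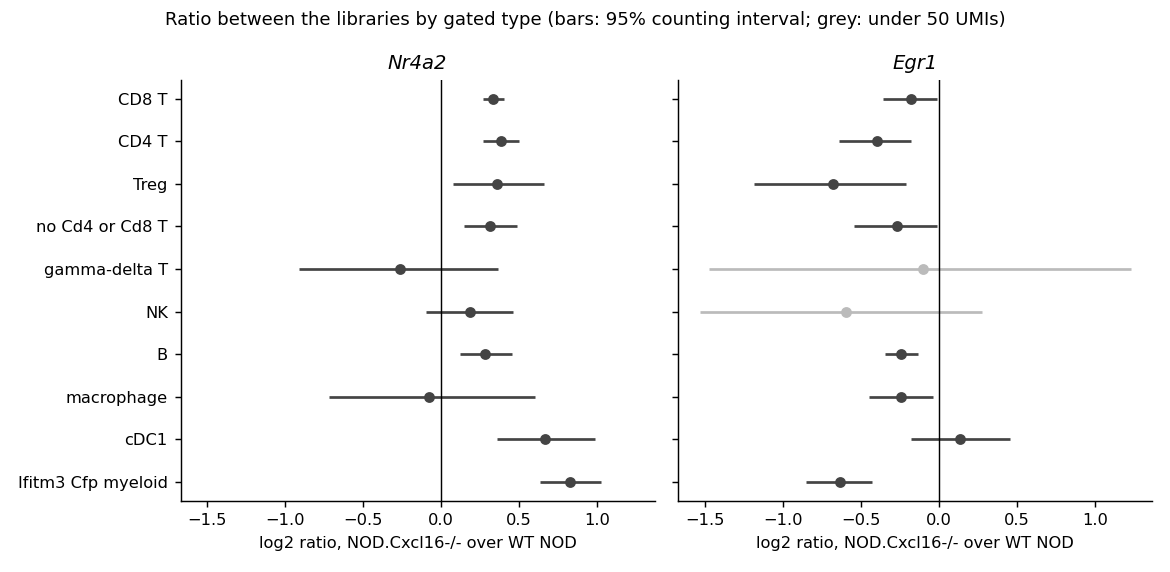
Log2 ratio of the library labelled NOD.Cxcl16-/- over WT NOD for Nr4a2 and Egr1 in the 10 types with at least 50 cells per library, bars 95% counting intervals and grey points for under 50 UMIs. Nr4a2 lies right of 0 in 8 types and Egr1 left of 0 in 7 of its 8 black points.

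The remaining members differed less or in both directions. Nr4a1 in NK cells had a log2 ratio of -0.78 (-1.38 to -0.21), and its median over 9 types was -0.14. Thinned, Nr4a1 was -0.62 in CD4 T cells, where the unthinned ratio was -0.20, and 0.15 in B cells, where it was -0.08. By subset and unthinned, Nr4a1 was 0.15 (0.04 to 0.27) in B cells with Fcer2a or Cr2. In the other resting B cells it was -0.19 (-0.34 to -0.03). Nr4a3 was higher in CD8 T cells, 0.21 (0.06 to 0.38), and lower in Treg cells, -0.55 (-0.89 to -0.21). Egr2 in B cells was 0.39 (0.05 to 0.80), and the B cells without Fcer2a or Cr2 had 10.8 CPM (7.42 to 15.3) and 21.8 CPM (17.4 to 27.1), those with either marker 12.1 and 11.9 CPM, and cycling B cells 0 and 15 UMIs. Egr3 in cDC1 was 0.96 (0.15 to 1.93), from 15 and 55 UMIs.

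The handling-stress list of 24 genes (AP-1 factors such as Fos and Jun, feedback genes such as Dusp1 and Zfp36, and heat-shock genes) was given beside these ratios, since warming and digestion induce both. It summed to 10464.5 and 11675 CPM in CD8 T cells, 12618.5 and 13659.5 CPM in CD4 T cells, 11434 and 12412 CPM in Treg cells, 12215 and 13508 CPM in B cells and 19021 and 20135 CPM in macrophages. The genes past 1.5-fold were 1 of 24 higher in CD8 T and in CD4 T cells, 3 higher and 2 lower of 23 measured in Treg cells, 4 higher in B cells, and 5 higher and 1 lower in macrophages. Over all genes tested, 3.86%, 3.55%, 6.64%, 5.59% and 17.2% were past that fold in CD8 T, CD4 T, Treg, B and macrophage cells. The CD8 T and CD4 T counts are thus near the share of all genes. Single genes of the list differed in both directions. Hsph1, which encodes a large heat-shock chaperone, had 63.5 and 115 CPM in CD8 T cells (log2 ratio 0.85), 75.5 and 121 CPM in CD4 T cells (0.67), 55.8 and 126 CPM in Treg cells (1.16), 55.8 and 112 CPM in B cells (1.00) and 47.3 and 139 CPM in macrophages (1.53). Hsph1, Hspa8, Hsp90aa1, Hsp90ab1, Hspe1 and Dnaja1 were higher in the library labelled NOD.Cxcl16-/- in 10 of 10 types, as were 5.14% of the 2373 genes. Jun, Jund, Dusp1 and Cebpb were lower in 10 of 10, as were 2.49% of them. Fos and Hspa1b were each higher in 5 types and lower in 5, Hspa1a was higher in 6 and Junb in 4. So some handling-linked genes, by their direction over types, differed between the libraries in the same cells in which Nr4a2 and Egr1 did. Their part in those ratios was not tested.

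Of 21 regulators of the pathway, the co-repressors Nab1 and Nab2, the upstream factors of the Srf, Elk, Mef2, Nfat and Creb families and brakes on receptor signals such as Cblb, Dgkz and Ptpn22, few were past 1.5-fold. In CD8 T cells 1 was lower, Mef2c (6.15 and 3.74 CPM, log2 ratio -0.59), and in CD4 T, Treg and B cells none of 20, 17 and 21 measured. In macrophages, where 17.2% of all genes were past that fold and WT NOD counts are low, 4 of 14 were higher: Rcan1, a calcineurin target (16.4 and 67.4 CPM, 1.98), Elk4 (12.7 and 29.0 CPM, 1.13), Mef2c (31.0 and 63.0 CPM, 1.00) and Crem (21.8 and 35.6 CPM, 0.68). Crem, a cAMP-responsive factor that acts at CRE sites, was higher in 10 of 10 types, with ratios from 0.20 to 0.98. So were 5.14% of the 2373 genes with 50 UMIs in each type. This count was added after the data were seen, and a tie to the NR4A genes was not tested. Of the T-cell response list of 24 genes, CD8 T cells had 1 lower, the chemokine gene Ccl3 (59.0 and 36.8 CPM, -0.67), CD4 T cells 1 lower, Ccl4 (190.5 and 99.8 CPM, -0.93), and Treg cells 2 of 19 lower, Nfkbid (26.5 and 12.6 CPM, -1.01) and Tagap (82.9 and 54.8 CPM, -0.59). Over all genes tested, 3.86% were past 1.5-fold in CD8 T, 3.55% in CD4 T, 6.64% in Treg and 5.59% in B cells. The T-cell response list summed to 2733 and 2702 CPM in CD8 T cells, 3542 and 3487 CPM in CD4 T cells and 4204 and 4045 CPM in Treg cells. The B-cell response list of 13 genes had none past 1.5-fold in B cells, with sums of 2403 and 2459 CPM. Of 11 measured genes of the myeloid inflammatory list, Ccl4 (2658 and 6349 CPM, 1.26) and Ccl3 (360.5 and 838 CPM, 1.21) were higher in macrophages and Ptgs2 (282 and 174 CPM, -0.69) lower. The median log2 ratio of the T-cell response list was 0.05 in CD8 T cells, beside 0.04 over all genes tested, and -0.07 in CD4 T cells beside 0.02.

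RNA of islet cells moved between the libraries as well. The 11 islet and exocrine genes summed to 45.8 and 136 CPM in CD8 T cells, 333 and 243 CPM in CD4 T cells, 413 and 176 CPM in Treg cells and 81.7 and 125 CPM in B cells, with between 2 and 4 of the 11 at 0 in each. Leaving out cells with over 3 insulin UMIs changed no ratio of the 6 genes in these types by more than its interval. The endothelial list of 4 genes, whose cells the sort was meant to remove, summed to 26.9 and 28.2 CPM in CD8 T cells and 134 and 102 CPM in B cells.

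Whether the genes were seen in the same cells was asked within each library, on cells thinned to 2000 UMIs. In WT NOD B cells, 44.9% (39.0 to 50.9) of the 283 cells with an Egr1 UMI also had an Nr4a1 UMI, against 28.0% (25.6 to 30.6) of the 1280 without. In the other library it was 49.8% (44.2 to 55.5) of 317 against 28.2% (26.0 to 30.4) of 1612. Egr2 was seen in 6.01% (3.54 to 9.44) of Egr1-positive and 0.703% (0.322 to 1.33) of Egr1-negative WT NOD B cells, and in 8.52% (5.69 to 12.2) and 1.18% (0.711 to 1.83) in the other library. Egr3 was seen in 20.1% and 10.8%, and in 21.1% and 9.12%. B cells with Egr1 thus more often held Nr4a1, Egr2 and Egr3 in both libraries, with intervals apart. Nr4a2 and Nr4a3 were more frequent in Egr1-positive B cells with intervals apart only in the library labelled NOD.Cxcl16-/- (20.5% against 9.37%, and 10.4% against 4.16%). In the WT NOD library the values were 12.7% against 8.91% and 5.65% against 5.31%.

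In CD8 T cells Nr4a2 was looked at with Nr4a3 and with Egr1, and the other pairs are not given here. Nr4a3 was seen in 12.0% (9.58 to 14.8) of Nr4a2-positive and 6.65% (5.36 to 8.14) of Nr4a2-negative WT NOD cells, and in 12.2% (9.52 to 15.3) and 7.05% (5.45 to 8.95) in the other library. Egr1 and Nr4a2 showed no such pairing: Nr4a2 was seen in 34.1% (27.1 to 41.7) of Egr1-positive and 32.8% (30.6 to 35.0) of Egr1-negative WT NOD cells, and in 41.3% (31.8 to 51.4) and 37.1% (34.4 to 39.8) in the other library. Subsets within a type differ in these genes, so a pairing within a type may also be one of subsets.

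**Figure D4:**
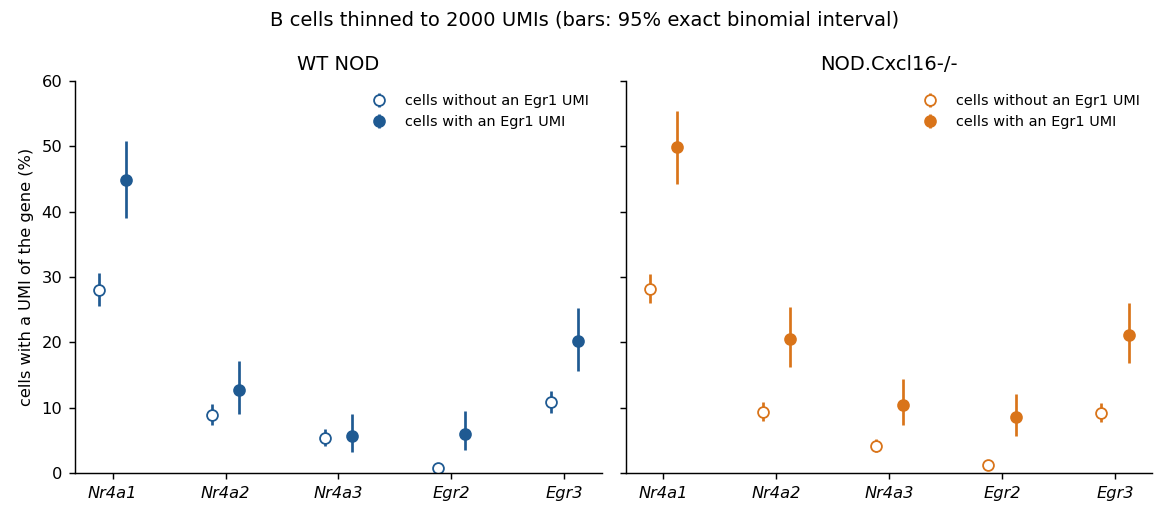
Share of B cells (percent, y axis) with a UMI of Nr4a1, Nr4a2, Nr4a3, Egr2 or Egr3 among cells without (open) and with (filled) an Egr1 UMI, each cell thinned to 2000 UMIs, with 95% exact binomial intervals. In the WT NOD library Nr4a1 is at 28.0% and 44.9%, and in the other at 28.2% and 49.8%.

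The number of the 6 genes seen in a thinned cell was then set against the lists, none of which holds a member. Of WT NOD CD8 T cells 52.1% had none, 37.6% had 1 and 10.3% had at least 2, and in the other library 49.4%, 39.0% and 11.5%. Here too 531 and 82 shallower CD8 T cells were left out. The T-cell response list was at 2440.5 CPM (2373 to 2509) in cells with none, 3338 with 1 and 4845 CPM (4632 to 5066) with at least 2. In the library labelled NOD.Cxcl16-/- it was 2416, 3221 and 4096 CPM. The stress list, which is larger in sum, went from 10892 to 11712.5 CPM and from 11957 to 14179 CPM, a smaller change relative to its level. By single genes, 12 of 24 response genes in WT NOD and 9 of 24 in the other library were higher in cells with at least 2 members than in cells with none, with intervals apart, and none lower. For the stress list it was 5 and 9 of 24 higher, and 1 and 0 lower. The same count over all genes was not made. These counts, here and in the types below, thus have no background share beside them.

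The examples that follow were chosen after their values were seen. In CD8 T cells Ccl4, a chemokine of activated T cells, was at 389 CPM in cells with none of the members and 1405 CPM with at least 2 in the WT NOD library, and at 331 and 676 CPM in the other. Tox, a factor of chronically stimulated T cells, was at 303 and 605 CPM, and at 362 and 895 CPM. Cd69, an early activation marker, was at 294 and 475 CPM, and at 298 and 451 CPM. Tnfrsf9, which encodes the costimulatory receptor 4-1BB, was at 67.4 and 115 CPM, and at 88.6 and 173 CPM. All 4 were thus higher in cells with at least 2 members in both libraries. Of the regulators, Cblb, a ubiquitin ligase that restrains T-cell receptor signals, was at 299.7 and 542.5 CPM, and at 399 and 701 CPM. Within CD8 T cells with Entpd1 or Havcr2 the response list was at 3716 and 7658 CPM, and at 4506 and 5696 CPM, with 3 and 1 of 24 response genes higher with intervals apart. In the library labelled NOD.Cxcl16-/- the list was at 4525 CPM with 1 member, within the interval of cells with none, and the stress list went from 11272 to 13929 CPM with 3 of 24 genes apart.

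CD4 T cells had 3310.5 CPM of the response list with no member seen and 5146 CPM with at least 2, and 3181 and 5218 CPM in the other library. Of the 24 genes, 7 and 9 were higher with intervals apart and 1 and 0 lower. The stress list of these cells went from 13577 to 14658 CPM and from 14760 to 16246 CPM. Of its 24 genes, 3 and 4 were higher with intervals apart and 1 and 1 lower. In anergic-like CD4 T cells of the WT NOD library the list was 4685, 5668 and 4897 CPM with 0, 1 and at least 2 members, which is not a steady order. Treg cells had 4559.9 and 6400.0 CPM of the response list, and 4215 and 5609 CPM, with 2 and 1 of 24 genes apart. Their stress list went from 11662 to 13820 CPM and from 13111 to 13859 CPM. Of the 24 stress genes, 2 and 1 were higher with intervals apart and 1 and 0 lower.

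In B cells both lists were higher with more members. The B-cell response list was at 2310.2 CPM (2233 to 2390) with none and 2776 CPM (2643 to 2914) with at least 2 in the WT NOD library, and at 2389 and 3177 CPM in the other. The stress list was at 12019.9 and 14529 CPM, and at 13527 and 16480.3 CPM. Of 13 response genes 3 and 7 were higher with intervals apart, and of 24 stress genes 9 and 11. Irf4, a receptor-dose-dependent factor, was at 125 and 197 CPM, and at 103 and 213 CPM. Cd86, a costimulatory ligand induced on activated B cells, was at 251 and 351 CPM, and at 297 and 429.8 CPM. Fos was at 494 and 815 CPM, and at 459 and 1008 CPM, and Fosb at 131 and 279.7 CPM, and at 70.6 and 218 CPM. In B cells the members thus came with receptor-response and AP-1 genes alike, and these readings cannot be told apart from the counts alone.

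**Figure D5:**
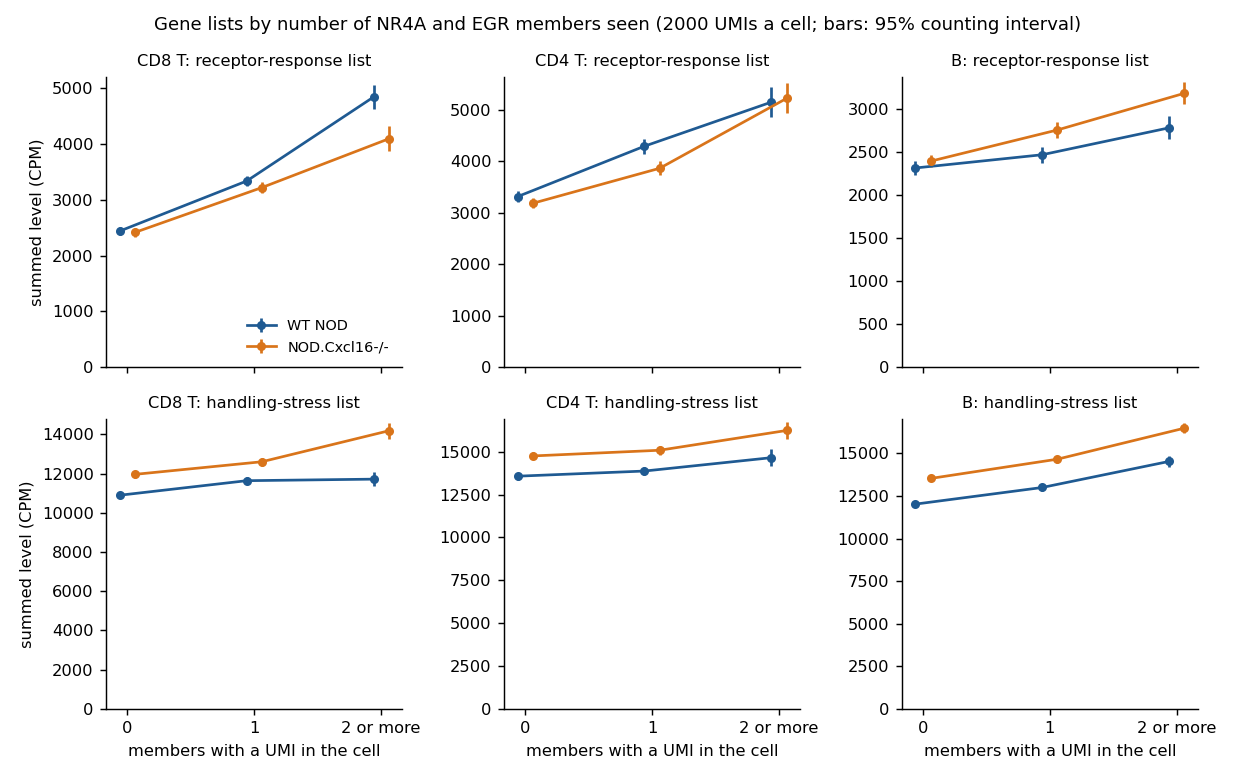
Summed level (CPM, linear y axis from 0) of the receptor-response list (top) and the handling-stress list (bottom) in CD8 T, CD4 T and B cells with UMIs of 0, 1 or at least 2 of the 6 genes (x axis), blue WT NOD and orange the library labelled NOD.Cxcl16-/-, bars 95% counting intervals. In CD8 T cells the response list goes from 2440.5 to 4845 CPM in the WT NOD library while the stress list goes from 10892 to 11712.5 CPM.

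In the pooled myeloid types the inflammatory list was at 6619, 6996 and 7644 CPM in the WT NOD library and at 9713, 10894 and 8533 CPM in the other with 0, 1 and at least 2 members, so the libraries did not share an order. Types differ in this list, and cells of several types are pooled in it.

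The genes most like each member over the 10 types, by Pearson's r of log2(CPM + 1), are given as a description. The points share libraries and depths, and 7690 genes with a mean of at least 10 CPM in each library were ranked by the lower r. For Nr4a1 they were Mef2c (0.90 and 0.91), Tmem131l (0.88 and 0.87) and Cbfa2t3 (0.84 and 0.86). For Nr4a2 they were Me2 (0.89 and 0.87), 1810041H14Rik (0.93 and 0.84) and Bud31 (0.88 and 0.81). For Nr4a3 they were Traf1 (0.87 and 0.89), Otulinl (0.89 and 0.86) and Ndufb4 (0.86 and 0.85). For Egr1 they were Cd72 (0.96 and 0.96), Wfdc17 (0.95 and 0.94) and Pld4 (0.93 and 0.94), and for Egr3 Rel (0.89 and 0.94), Rasgrp3 (0.88 and 0.95) and Gm10552 (0.94 and 0.88). Egr2 itself was below that mean. For Egr2 they were Fam76a (0.70 and 0.69), Banp (0.68 and 0.89) and Ift140 (0.65 and 0.69). Between members, Egr1 and Egr3 had r of 0.88 and 0.80 over the 10 types, and Nr4a1 and Nr4a2 0.08 and -0.01. Each gene's own profile over types had r of 0.94, 0.95, 0.92, 0.98, 0.45 and 0.94 between the libraries for Nr4a1, Nr4a2, Nr4a3, Egr1, Egr2 and Egr3.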

How the data were processed

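Single-cell transcripts were measured in 1 library per group. Per the labels' protocols libraries were 10x Genomics 3' v3.1 dual-index, and per the submitters' processing notes Cell Ranger 7.0.1 and mm10 were used. As deposited, the values are whole-number counts of UMIs for each gene in each barcode, not normalized. Symbols were as in the gene table, and 32158 of 32285 gene IDs were in the GRCm38 annotation (GENCODE M21), from which gene positions come.

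Barcodes with under 500 genes (1582 and 311) or over 10% mitochondrial UMIs (25 and 29) were left out, as were 1530 and 891 called doublets. Doublets were scored with a re-implemented simulation scheme (2 simulated doublets per barcode, 2000 variable genes, 30 principal components) and called at 0.8% per 1000 barcodes. Types were gated on marker UMIs, not clustered. The markers were fixed at the outset, but the gate thresholds went through 3 versions, set with the members' levels in view. One T-cell subset, set apart before the other non-cycling T-cell subsets, is not reported here on its own. Its cells are counted among the remaining cells of the type, a group formed after the data were seen. CPM is UMIs over all UMIs of the gated cells of a library. Shares were also computed on cells thinned to 2000 UMIs. Depths of 93553185 and 98681133 UMIs set the precision, and all intervals are 95% exact and cover counting error only. Ratios are of CPM plus 1, and a call is 1.5-fold with at least 50 UMIs over both libraries. With 1 library per group no test was run.

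The members and lists were chosen with earlier results of these data known. Named genes were the 6 members, the 3 most similar genes of each, and list genes past 1.5-fold (up to 4 per list and type) in CD8 T, CD4 T, Treg, B and macrophage cells. Direction counts over types, the examples by members seen, the T gate without Cd4 or Cd8, the subsets in the same-cell counts and the motifs were added after data were seen. Scripts were tested on simulated data. Alternatives were gene minimum, doublets, barcodes, gates, thinning, per-cell means, filters and pseudocounts. Tools were Python 3.11.15, NumPy 2.4.6, SciPy 1.17.1, pandas 2.3.3, scikit-learn 1.9.0 and Matplotlib 3.10.9.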

Additional observations from a re-analysis of the deposited data

Results flagged for a closer look

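For 3 of the genes the libraries differed in opposite directions in different cell types, each with a counting interval off 0; this criterion was set after the data were seen and the difference was not tested. As log2 ratios of the library labelled NOD.Cxcl16-/- over WT NOD, Nr4a3 was 0.21 in CD8 T cells and 0.28 in Ifitm3 Cfp myeloid cells but -0.55 in Treg cells. Egr2 was 0.39 in B cells and -0.87 in Ifitm3 Cfp myeloid cells. Egr3 was 0.96 in cDC1 cells, -0.55 in CD4 T cells and -0.19 in B cells. Egr2 and Egr3 rest on few UMIs outside B cells.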

How the results depend on the processing

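The log2 ratio of the 6 genes summed was 0.20 in CD8 T, 0.08 in CD4 T, -0.15 in Treg, -0.08 in B and -0.20 in macrophage cells. Over 11 alternatives, 2 of them added after the data were seen, it ranged from 0.16 to 0.29, 0.013 to 0.090, -0.26 to -0.093, -0.12 to 0.032 and -0.26 to 0.37. By the mean of each cell's CPM it was 0.29 in CD8 T and -0.0045 in B cells, and with each cell thinned to 2000 UMIs 0.032 in B and 0.37 in macrophage cells; the cause was not tested. With no filter beyond 1 UMI, 742, 1083, 3929, 1139 and 7470 genes were past 1.5-fold in CD8 T, CD4 T, Treg, B and macrophage cells, against 411, 350, 502, 565 and 849, since more genes of low count were tested. Of the 30 single-gene ratios in these types, thinning moved 8 by more than the counting interval and the per-cell mean 3. Thinning to 1000 UMIs in place of 2000 moved 45 of 60 shares of cells with a UMI by more than their interval, all downward, and left 15 within it, so thinned shares hold for their depth only. Depth limits Egr2 and Egr3 in most types. No paired analysis was possible because each group has 1 library.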
